A study of Mus musculus with 4 samples.

Results

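The 34 genes described here encode the tumour suppressor p53, its transcriptional targets, members of the BCL2 family, and caspases with their activators and inhibitors. They were chosen by name alone, as the gene columns of the deposited table whose header is one of the 34 symbols. That rule uses no measured value, but the symbols were listed with earlier results of these data known. Survival genes known mainly as NF-kB targets were kept outside the group. All 34 were found among the 17187 genes of the table.

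The RNA came from group 2 innate lymphoid cells (ILC2s), tissue lymphocytes that lack antigen receptors and make type 2 cytokines, sorted from the lungs of BALB/c mice. The cells of both groups were kept in culture for 18 hours, 2 libraries with an isotype control antibody and 2 with one against the costimulatory receptor CD226. The stated 5 µg/mL may apply to the CD226 antibody only or to both antibodies. The series' title names CD226 blockade and ILC2 effector function, so the comparison asks which transcripts differ when CD226 is bound. The design text speaks instead of treated mice, the table's treatment column calls the controls PBS, and the sample labels were followed. No age or genetic alteration is given in the labels. They also do not say whether the 2 libraries within each group represent different mice or cultures, and the spread that p-values measure here may be technical.

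Estimated depth ranged from 12433729 to 17847329 reads per library. All 15 ILC2 markers were found, with Gata3, the lineage factor, between 13811 and 17310 normalised reads and Ptprc (CD45) between 8450 and 12392. Among T cell markers Cd3d reached at most 5.53 and Trac at most 4.64 normalised reads, whereas Trbc2 lay between 1340 and 2370. Cd3e, Cd3g and Trbc1 were also found, each with a mean of 10 or more. The 7 T cell markers found summed to 3223 and 3739 with isotype, 3440 and 2299 with anti-CD226. Trdc, a constant gene of the gamma-delta receptor, was at 47.5 and 33.2 with isotype, 101 and 58.4 with anti-CD226. Of 5 tested T cell markers, 1 was higher and 0 were lower at an unadjusted p below 0.05, beside 1.55% and 0.815% of all genes. Of 5 tested mast cell and basophil markers, 1 was higher (Gata2) and 2 were lower (Cpa3 and Mcpt8) at an unadjusted p below 0.05. The shares of all genes at that p were again 1.55% higher and 0.815% lower. The summed level of the 7 mast cell and basophil markers found was 1095 and 944 with isotype, 1015 and 1480 with anti-CD226, most of it Kit. Ms4a2 was at 0 in replicate 1 of both groups. Of 20 macrophage and monocyte markers, 11 were found, and 8 of these had the higher mean in anti-CD226. Their summed level was 304 and 292 normalised reads in isotype replicates 1 and 2, and 595 and 1928 in anti-CD226 replicates 1 and 2. Of these markers Mpeg1 was at 0 in both isotype libraries, and Itgam, Itgax and Chil3 were at 0 in isotype replicate 2. Csf1r, the receptor that defines the lineage, was between 1.03 and 2.62 in all libraries. Of 7 tested macrophage and monocyte markers, 5 were higher and 0 were lower at an unadjusted p below 0.05 (limma). The shares of all genes were 1.55% and 0.815%, and 0 of the 7 passed the adjusted p. Mmp12 was at 34.3 and 2.32 with isotype, 168 and 678 with anti-CD226. Chil3 was at 19.9 and 0 with isotype, 16.5 and 784 with anti-CD226, so its groups overlapped. The part of macrophages, mast cells, basophils and T cells in the results below was not tested. In bulk RNA, fewer cells with a transcript and less of it per cell cannot be told apart.

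p53 is a transcription factor that is held at a low level by the ubiquitin ligase MDM2 and accumulates mainly through protein stabilisation after DNA damage and other stress. It induces genes that stop the cell cycle, repair DNA or promote death, and it induces Mdm2, which closes a negative feedback loop. Death through mitochondria is decided within the BCL2 family. BCL2 and MCL1 protect, BH3-only proteins oppose them, and BAX and BAK open the outer membrane so that cytochrome c can assemble APAF1 and the initiator caspase encoded by Casp9 into the apoptosome. XIAP blocks caspases and DIABLO relieves that block. Death receptors such as FAS act through the caspase encoded by Casp8, which is restrained by the product of Cflar. In lymphocytes, BCL2 and MCL1 are well known for supporting survival on cytokines.

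p53 binds DNA at a pair of adjacent decamers, the p53 consensus response element. This element was searched in the 250 bases before each RefSeq transcription start (GRCm38.p6), with a spacer of 0 or 1 base and at most 1 mismatch over the 20 consensus positions. The consensus is its own reverse complement, so both strands are covered. These settings were chosen with the sequences of the genes in view. Promoters of 27 of the 34 genes were in the RefSeq table, and 4 of the 27 (14.8%) held the element, against 45 of 27025 genes overall (0.17%). Because the genes were chosen in part as known p53 targets, nothing is read from that contrast. The 4 elements are shown because their genes span the arms of the response, namely arrest (Cdkn1a), feedback (Ccng1), death (Bax) and DNA repair (Polk). Each is written in the direction of transcription, with the element, including its spacer where there is one, in capitals.
Cdkn1a, chr17:29090908-29090967, plus strand: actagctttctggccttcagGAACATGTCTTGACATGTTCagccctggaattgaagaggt
Ccng1, chr11:40755442-40755501, minus strand: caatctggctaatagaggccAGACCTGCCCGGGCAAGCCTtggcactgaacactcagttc
Bax, chr7:45467070-45467130, minus strand: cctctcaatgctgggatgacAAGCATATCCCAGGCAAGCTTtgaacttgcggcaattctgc
Polk, chr13:96519378-96519437, minus strand: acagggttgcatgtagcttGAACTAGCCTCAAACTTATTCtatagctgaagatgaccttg

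The Cdkn1a element began 51 bases before the upstream of its 2 RefSeq starts, which lie 2790 bases apart. Those of Ccng1, Bax and Polk began 195, 212 and 231 bases before a start. The Polk element lies inside the annotated Polk gene, before a start within it, and none of the printed windows touches an exon of GENCODE M21. A match to the consensus is a description of these letters and does not show that p53 binds there. The expression of these 4 genes, described below, did not vary together across libraries. Cdkn1a and Ccng1 were nearly level across libraries, Bax was low in a single anti-CD226 library and Polk was high in the same library.

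The transcripts of p53 and of several of its targets were abundant in all 4 libraries, with or without the CD226 antibody. To compare genes, levels were divided by the length of the longest annotated transcript and averaged over the 4 libraries. Bax, which opens the outer mitochondrial membrane, had the highest level at 2861 normalised reads per kilobase. Cdkn1a, which encodes the cyclin-dependent kinase inhibitor p21, followed at 1733 per kilobase. Ccng1 (cyclin G1) had 1703, Casp8 had 1642 and Trp53 itself had 1505 per kilobase. Mcl1 had 926 and Mdm2 had 683. The lowest was Eda2r, which was below the filter on low values, at 0.736 per kilobase. Next were Bcl2l11, which encodes the BH3-only protein BIM, at 13.1, Gadd45a, a growth arrest and DNA damage gene, at 21.9, and Bak1, the partner of Bax, at 23.9. Bax thus stood far above Bak1, and Mcl1 above Bcl2 (289 per kilobase), in every library. The longest transcript need not be the one these cells use.

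**Figure D1:**
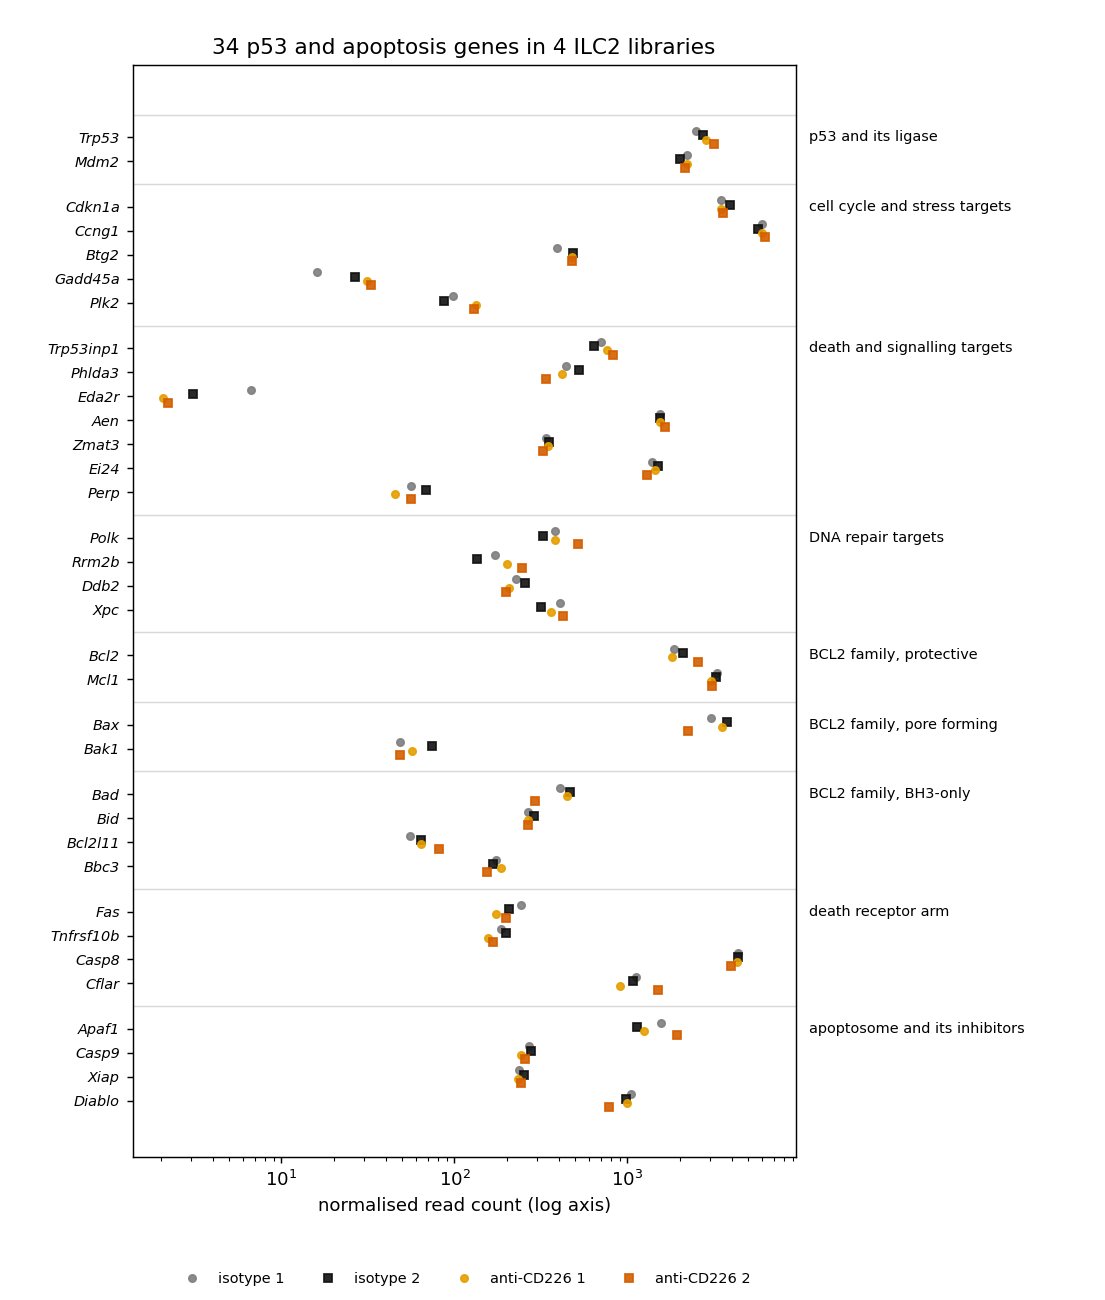
Normalised read count (log axis) of the 34 genes in each of the 4 libraries, grouped by role; grey and black points are isotype replicates 1 and 2, light and dark orange points are anti-CD226 replicates 1 and 2, and points of a gene are offset vertically. Ccng1 has the highest values, from 5706 to 6278, and Eda2r the least.

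None of these genes passed the test between groups, and the differences were small. Of the 33 genes tested, 15 had the higher and 18 the lower mean in anti-CD226; the median log2 fold change was -0.04, beside 0.01 over all 13010 genes tested. The differences use log2(value + 1), and the widest were 0.61 for Gadd45a and -0.35 for Phlda3. With limma's moderated test and adjustment over all genes, 0 of 33 passed an adjusted p of 0.05, as did 0% of all genes. At an unadjusted p below 0.05 there was 1 of 33, Rrm2b, which was higher, beside 1.55% of all genes in that direction and 2.37% in either. No tested gene of the group was below that p in the lower direction, beside 0.815% of all genes. The highest library exceeded the lowest by between 1.07 times (Mcl1 and Aen) and 2.06 times (Gadd45a). Without anti-CD226 replicate 1, 2 genes passed the adjusted p, Bax lower and Apaf1 higher, beside 12.6% of all genes. With 2 libraries a side, 0.333 is the smallest two-sided p of an exact permutation test, and none was run.

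The groups nevertheless stood apart, without overlap, in 16 of the 33 genes (48.5%), beside 26.8% of all genes. Anti-CD226 was the higher group in 7 of them, beside 13.8% of all genes, and the lower in 9, beside 13% of all genes. The 7 were Trp53, Gadd45a, Plk2, Trp53inp1, Aen, Polk and Rrm2b, all on the p53 side of the group. The 9 were Phlda3, Perp and Ddb2, which are on the p53 side too, and Mcl1, Bid, Fas, Tnfrsf10b, Casp8 and Casp9. Fas and Tnfrsf10b are also p53 targets but were grouped with the death receptor arm. Both anti-CD226 libraries lay on the same side of the isotype mean in 25 of the 33 genes (75.8%), beside 50.1% of all genes. In several of these genes the gap was very narrow, as for Aen, with isotype libraries at 1542 and 1534 and anti-CD226 libraries at 1547 and 1649. With the trend of each library with transcript length removed, the groups stood apart in 12 of 33 genes (36.4%), beside 29.8% of all genes.

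**Figure D2:**
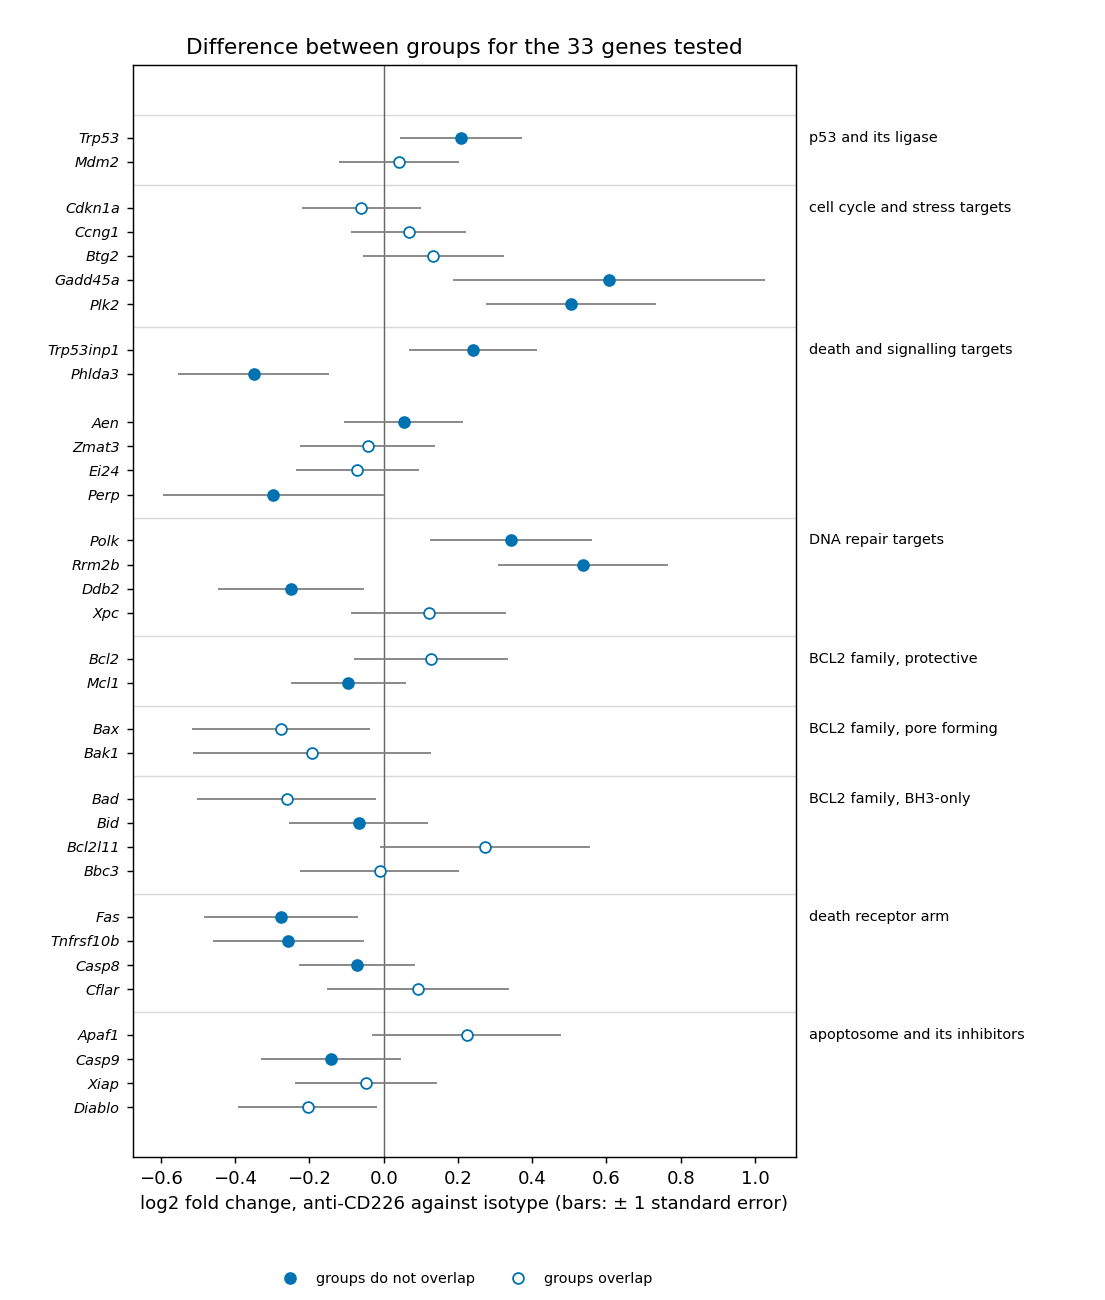
Log2 fold change of anti-CD226 against isotype for the 33 genes tested, with bars of 1 standard error on each side; filled points mark genes whose groups do not overlap. Rrm2b, Plk2 and Gadd45a lie farthest to the right, and Phlda3 farthest to the left at -0.35.

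Trp53 lies on chromosome 11 from 69580359 to 69591873 on the plus strand (GRCm38, as for all positions of genes here). It stood at 2485 and 2726 normalised reads in isotype replicates 1 and 2 and at 2846 and 3181 in anti-CD226 replicates 1 and 2. Both anti-CD226 values exceeded both isotype values, by little compared with the spread within each group. Trp53 differed by 0.21 on the log2 scale (SE 0.16; limma, adjusted p = 0.98). Mdm2, the ligase that p53 induces against itself, measured 2220 and 2018 with isotype, 2216 and 2140 with anti-CD226. The Mdm2 values of the groups overlapped, with a log2 fold change of 0.04 and a 95% interval from -0.33 to 0.41.

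Of the 5 targets that act on the cell cycle and stress, 4 had the higher and 1 the lower mean in anti-CD226, and none passed the test. Cdkn1a, on chromosome 17 from 29090976 to 29100727, measured 3468 and 3896 with isotype, 3484 and 3567 with anti-CD226. Both anti-CD226 values lay between the isotype values, and the interval of its log2 fold change ran from -0.43 to 0.31. Ccng1, a cyclin that takes part in feedback on p53, measured 5979 and 5706 with isotype, 5966 and 6278 with anti-CD226, which overlapped. Btg2, an antiproliferative gene, measured 391 and 485 with isotype, 477 and 479 with anti-CD226. Isotype replicate 1 was the low library of Btg2, and the other three were close together.

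Plk2, a polo-like kinase induced by p53, had the smallest p of these cell cycle and stress targets. It lies on chromosome 13 from 110395046 to 110400844 and measured 98.4 and 86.5 with isotype, 134 and 129 with anti-CD226. The groups stood apart by more than the spread within either, with 92.4 ± 8.35 against 131 ± 3.46 (SD, 2 libraries per group). Plk2 differed by 0.51 on the log2 scale (SE 0.23; limma, unadjusted p = 0.059, adjusted p = 0.98). Gadd45a measured 16.0 and 26.8 with isotype, 31.2 and 33.0 with anti-CD226. These are few reads, and the interval of the Gadd45a fold change, from -0.37 to 1.58 on the log2 scale, was the widest in the group. Of its exonic bases, 19.1% are shared with E230016M11Rik on the other strand, and the treatment of strand is not given in the sources used here, so the 2 cannot be told apart.

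Of the 4 targets that act in DNA repair and nucleotide supply, 3 had the higher mean in anti-CD226 and 1 the lower, and none passed the adjusted test. Rrm2b encodes the p53-inducible small subunit of ribonucleotide reductase, which supplies deoxynucleotides outside S phase, and lies on chromosome 15 from 37923952 to 37961318. It measured 172 and 135 with isotype, 201 and 244 with anti-CD226, with no overlap. Its difference was 0.54 on the log2 scale (SE 0.23; limma, unadjusted p = 0.047, adjusted p = 0.98). Under scaling to the total signal, upper quartile scaling, no filter on low values or a replicate block, Rrm2b was no longer below an unadjusted p of 0.05. Of the exonic bases of Rrm2b, 8.04% overlap Gm49085 on the other strand. Polk, a DNA polymerase that copies past damaged bases, measured 379 and 324 with isotype, 380 and 520 with anti-CD226. Its groups did not overlap only because anti-CD226 replicate 1 exceeded isotype replicate 1 by less than the value of 1 read in either library.

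The other two of them recognise damage in nucleotide excision repair. Ddb2, which detects ultraviolet lesions in chromatin, measured 227 and 255 with isotype, 207 and 197 with anti-CD226. Xpc, which senses distorted DNA, measured 410 and 317 with isotype, 362 and 424 with anti-CD226. The lower Ddb2 values and the overlapping Xpc values both missed the test (limma, adjusted p = 0.98 for each), and 23.8% of the exonic bases of Ddb2 overlap Acp2 on the other strand.

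Of the 6 tested targets with roles in signalling and death, 2 had the higher and 4 the lower mean in anti-CD226, and none passed the test. Phlda3, a p53-induced inhibitor of AKT, had the smallest p among them and lies on chromosome 1 from 135766119 to 135769136. It measured 439 and 525 with isotype, 420 and 337 with anti-CD226, so the groups were apart, narrowly for anti-CD226 replicate 1. Phlda3 differed by -0.35 on the log2 scale (SE 0.20; limma, unadjusted p = 0.12, adjusted p = 0.98). Trp53inp1, which promotes p53 activity and autophagy, went the other way, from 703 and 641 in isotype to 766 and 820 in anti-CD226 libraries. Perp, a membrane protein of p53-dependent death and of desmosomes, measured 56.4 and 68.8 with isotype, 45.3 and 56.2 with anti-CD226. Isotype replicate 1 of Perp exceeded anti-CD226 replicate 2 by less than the value of 1 read, with 51 estimated reads in each.

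The other targets of death and signalling had smaller differences. Aen, a nuclease of apoptotic DNA breakdown, had a log2 fold change of 0.05. Zmat3, a zinc finger RNA-binding protein, had -0.04, and Ei24, an endoplasmic reticulum protein of autophagy, had -0.07. Eda2r, a receptor of the tumour necrosis factor family, was the only gene of the 34 below the filter of a mean of 10 and was not tested. It measured 6.63 and 3.09 with isotype, 2.06 and 2.20 with anti-CD226, where a count of 3 reads is worth between 2.32 and 3.32. The anti-CD226 values of Eda2r were thus under the 3-read floor of their own libraries, and no fold is given.

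Of the 33 genes tested, the protective BCL2 family gene Mcl1 had the smallest ratio of highest to lowest library, 1.07. By coefficient of variation over the 4 libraries, Aen (3.45%) and Zmat3 (3.71%) varied less than Mcl1 (3.81%). Mcl1 measured 3278 and 3262 with isotype, 3057 and 3066 with anti-CD226, which put anti-CD226 lower without overlap. Mcl1 differed by -0.09 on the log2 scale (SE 0.15; limma, unadjusted p = 0.56, adjusted p = 0.98). The SDs of Mcl1, 10.97 and 6.60, are smaller than counting error alone would give at this level. Bcl2 measured 1861 and 2084 with isotype, 1804 and 2564 with anti-CD226. The anti-CD226 libraries held both the lowest and the highest Bcl2 value.

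Both pore-forming genes had the lower mean in anti-CD226 and overlapping groups, and neither passed the test. Bax, on chromosome 7 from 45461697 to 45466898, measured 3058 and 3777 with isotype, 3516 and 2240 with anti-CD226. Only anti-CD226 replicate 2 was low, and replicate 1 lay between the isotype values. Bax differed by -0.28 on the log2 scale (SE 0.24; limma, unadjusted p = 0.28, adjusted p = 0.98). Without anti-CD226 replicate 2 it was 0.05, and without anti-CD226 replicate 1 it was -0.60 (limma, adjusted p = 0.016). Bak1 measured 48.6 and 74.1 with isotype, 56.6 and 48.5 with anti-CD226, with isotype replicate 2 the high one. For Bak1, 18.2% and 7.35% of exonic bases overlap entries named Ggnbp1 on the other strand. For Bax, 12.2% overlap Gm45808 on the same strand.

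Of the 4 BH3-only genes, 1 had the higher and 3 the lower mean in anti-CD226, and none passed the test. Bad, controlled by growth factor signalling, was low in anti-CD226 replicate 2 as Bax was, with 406 and 465 in isotype and 450 and 292 in anti-CD226 libraries. Its difference was -0.26 on the log2 scale (SE 0.24; limma, unadjusted p = 0.31, adjusted p = 0.98). Bid, which carries the death receptor signal to mitochondria, stood at 266 and 290 against 266 and 265. The isotype replicate 1 value of Bid exceeded that of anti-CD226 replicate 1 by less than the value of 1 read. Bcl2l11 measured 55.3 and 64.1 with isotype, 63.8 and 81.6 with anti-CD226, with anti-CD226 replicate 2 the high one. Bbc3, which encodes the p53-induced protein PUMA, stood at 173 and 167 against 186 and 153, and its log2 fold change of -0.01 turned sign under quantile normalization and with the length trend removed. For Bad and Bid, 20.5% and 17.7% of exonic bases overlap a gene on the other strand, Gpr137 and Bcl2l13, so reads of these pairs cannot be told apart.

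Of the 4 genes of the death receptor arm, 1 had the higher and 3 the lower mean in anti-CD226, and none passed the test. Fas, on chromosome 19 from 34290666 to 34327772, measured 241 and 208 with isotype, 173 and 197 with anti-CD226. The groups of Fas did not overlap, and the difference was -0.28 on the log2 scale (SE 0.21; limma, unadjusted p = 0.22, adjusted p = 0.98). Tnfrsf10b, the mouse receptor for TRAIL and a p53 target like Fas, measured 187 and 199 with isotype, 156 and 166 with anti-CD226. Tnfrsf10b was also without overlap, and its interval ran from -0.73 to 0.21. Casp8 measured 4351 and 4349 with isotype, 4310 and 3970 with anti-CD226. Its isotype SD of 1.13 is far below counting error. Cflar stood at 1121 and 1070 against 909 and 1501, the anti-CD226 libraries again holding the lowest and the highest value.

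Of the 4 genes of the apoptosome and its inhibitors, 1 had the higher and 3 the lower mean in anti-CD226, and none passed the test. Diablo, which frees caspases from XIAP, had the smallest p of its role, with 1053 and 979 in isotype and 993 and 781 in anti-CD226 libraries. Diablo differed by -0.20 on the log2 scale (SE 0.19; limma, unadjusted p = 0.31, adjusted p = 0.98). Apaf1 measured 1565 and 1135 with isotype, 1252 and 1934 with anti-CD226. Without anti-CD226 replicate 1 the Apaf1 log2 fold change was 0.54 (limma, adjusted p = 0.042), and without replicate 2 it was -0.09. Casp9 stood at 269 and 278 against 241 and 255, and Xiap at 236 and 253 against 232 and 242. Xiap varied by a coefficient of variation of only 3.89% over the 4 libraries, and the Casp9 groups were apart by a narrow gap. For Diablo, 21.5% of exonic bases overlap B3gnt4 on the other strand and 19.3% overlap Gm49027 on the same strand.

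Libraries differed in how their values ran with transcript length. Each gene's deviation from its mean over the 4 libraries was set against length in 12716 genes, and the rank correlation (Spearman) was 0.54 in anti-CD226 replicate 2, -0.37 in anti-CD226 replicate 1, -0.49 in isotype replicate 2 and -0.0034 in isotype replicate 1. These 4 deviations sum to 0 for each gene and are not independent. Against the isotype mean, Bax (1100 bases) and Bad (1533 bases) stood at -0.60 and -0.57 on the log2 scale in anti-CD226 replicate 2, and Phlda3 (1435 bases) at -0.51. Apaf1 (6577 bases) and Cflar (6572 bases) stood at 0.54 and 0.45. Of the 17 tested genes with a longest transcript of 2800 bases or less, 13 were below the isotype mean in anti-CD226 replicate 2, with a median of -0.14. Of the 16 longer ones, 11 were above it, with a median of 0.17. Spearman's rho between length and the difference from the isotype mean was 0.54 over the 33 genes in replicate 2, beside 0.53 over 12716 genes. In anti-CD226 replicate 1 it was -0.02 over the 33 genes and -0.08 over all. These are descriptions across genes, and genes of a library share its preparation. In all, 24 of the 33 genes (72.7%) lay farther from the isotype mean in anti-CD226 replicate 2 than in replicate 1, beside 72.2% of all genes.

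**Figure D3:**
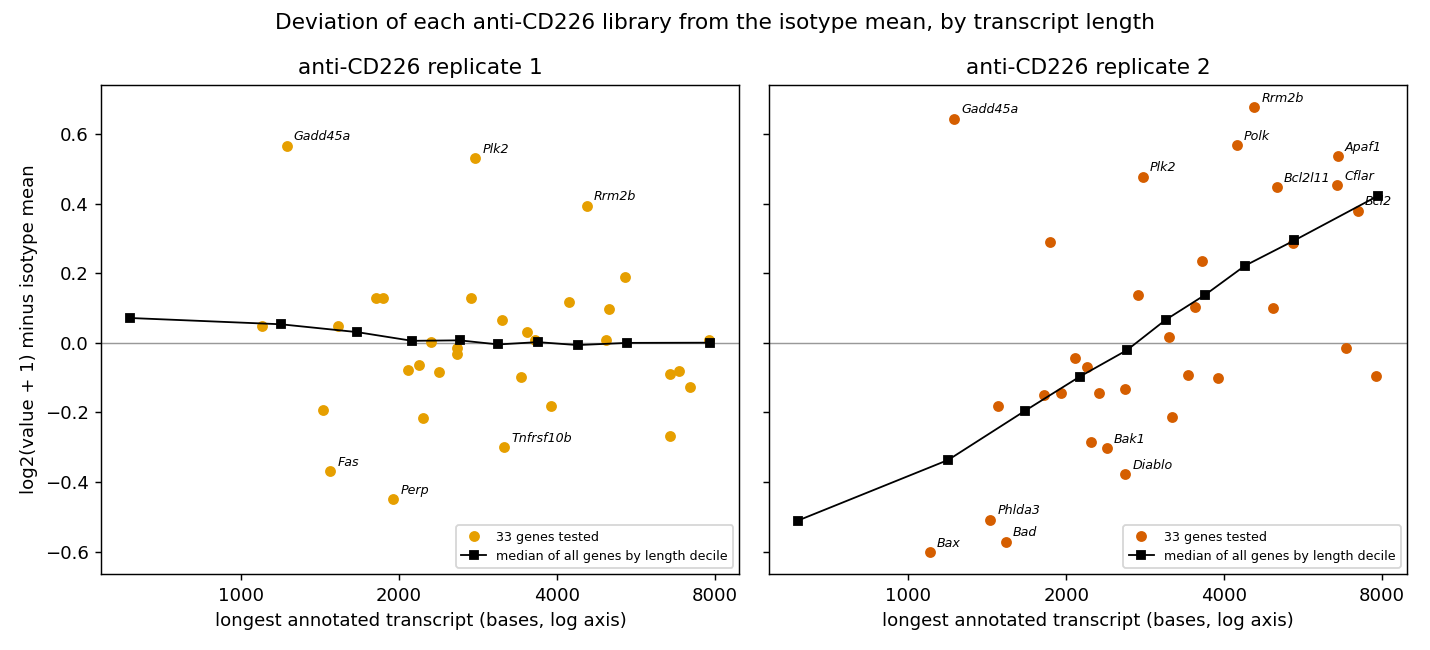
Difference of each anti-CD226 library from the isotype mean, in log2(value + 1), against the longest annotated transcript in bases (log axis), with the 33 genes as points and the median of all genes in each length decile as squares. In replicate 2 the squares rise from -0.51 in the shortest decile to 0.42 in the longest, with Bax and Bad low at the left and Apaf1 and Cflar high at the right, while in replicate 1 they stay between -0.01 and 0.07.

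Gadd45a, Plk2 and Rrm2b had higher values in both anti-CD226 libraries than in either isotype library. Against the isotype mean, Gadd45a stood at 0.57 and 0.65 in anti-CD226 replicates 1 and 2, Plk2 at 0.53 and 0.48, and Rrm2b at 0.40 and 0.68. Their longest transcripts have 1223, 2800 and 4561 bases. With the length trend removed, the log2 fold changes were 0.73 for Gadd45a, 0.49 for Plk2 and 0.44 for Rrm2b. Of the 33 genes, 2 were then below an unadjusted p of 0.05, Rrm2b and Plk2, beside 3.18% of all genes, and 0 passed the adjustment. Fas and Tnfrsf10b, which missed the test, were below the isotype mean in both libraries, at -0.37 and -0.18 for Fas and at -0.30 and -0.21 for Tnfrsf10b. The summed macrophage markers were also higher in these 2 libraries, Cpa3 and Mcpt8 were lower in them, and Gata2 and Trdc were higher, and their part in these differences was not tested.

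Other genes of these pathways, outside the 34, were taken from 4 lists, and 0 of them passed the adjusted test in either direction. Of 27 other p53 targets tested, 16 had the higher mean and 11 the lower (median log2 fold change 0.02). At an unadjusted p below 0.05 there were 0 higher and 1 lower, beside 1.55% and 0.815% of all genes. The 1 lower gene, Cd80, a costimulatory ligand, measured 18.8 and 18.5 with isotype, 2.06 and 7.72 with anti-CD226, which is few reads. Sesn1, a p53-induced brake on mTORC1, stood at 413 and 397 against 521 and 536, and Pmaip1, which encodes the BH3-only protein NOXA, at 315 and 305 against 362 and 449. Sesn1 and Pmaip1 were thus higher without overlap, and both missed the test (limma, adjusted p = 0.98 for each). Among the 27, the groups stood apart with anti-CD226 higher in 4 and lower in 4 (29.6%), beside 26.8% of all genes.

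Of 22 tested regulators of p53 and damage kinases, 13 had the higher mean and 9 the lower (median 0.21), and 3 higher and 0 lower had an unadjusted p below 0.05, beside 1.55% and 0.815% of all genes. The 3 modify p53 after translation. Sirt1, a deacetylase of p53, measured 214 and 290 with isotype, 401 and 427 with anti-CD226 (limma, unadjusted p = 0.0094, adjusted p = 0.98). Crebbp, an acetyltransferase and coactivator of p53, stood at 653 and 732 against 1022 and 1010. Usp7, which removes ubiquitin from p53 and MDM2, stood at 511 and 585 against 753 and 721. In all 3 both anti-CD226 libraries exceeded both isotype libraries. The list's median transcript length was 4410 bases, above the 2848 of all genes tested.

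Of 14 tested genes outside the 34 that belong to the BCL2 family or are linked to it, 2 had the higher mean and 12 the lower (median -0.12). Of the 14, 0 were below an unadjusted p of 0.05, beside 2.37% of all genes. Bag1, Bag3, Bclaf1 and Tmbim6 are linked to the family but not members of it, and the 2 higher were Bag3 and Bclaf1. Bok, a BAX relative, measured 125 and 141 with isotype, 120 and 59.5 with anti-CD226. Tmbim6, a suppressor of BAX-driven death, stood at 3689 and 3827 against 3373 and 2726, and Bag3, a cochaperone, at 296 and 259 against 292 and 413. In all 3 the largest departure was in anti-CD226 replicate 2. The median transcript length of this list was 2177 bases, below the 2848 of all genes tested. Of 30 other genes of caspases and the execution of death, 13 were higher and 17 lower, with a median of -0.03. At an unadjusted p below 0.05 there were 0 higher and 1 lower, beside 1.55% and 0.815% of all genes. The 1 lower gene was Dffb, the nuclease that cuts DNA between nucleosomes, at 265 and 257 with isotype, 168 and 205 with anti-CD226 (limma, unadjusted p = 0.044, adjusted p = 0.98). Endog, a mitochondrial nuclease, stood at 218 and 236 against 208 and 153, and Fadd, the adaptor of FAS, at 144 and 187 against 167 and 89.0.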

How the data were processed

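The submitters' processing notes name STAR (2.7.8), Partek (10.0), DESeq2 without a version, and mm10. Which program counted reads, with which annotation and strand setting, is not given in the sources used here. The labels' protocols give a low-input cDNA kit and 10 pg of input RNA. What the authors deposited is a normalised signal for each gene in each library. Between 73.5% and 75.1% of low values were whole multiples of a library's own step (tolerance 0.02 of a step), too few for a count model. Depth is the total divided by the step, and floors cover counting error only. Of the gene columns, 184 were checked singly against the unit.

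Genes with a mean of 10 or more were tested with limma 3.58.1 in R 4.3.3 on log2(value + 1) with a mean-variance trend, two-sided, Benjamini-Hochberg adjusted over 13010 genes (2 residual and 5.81 prior degrees of freedom). The steps were tested on simulated data. Intervals are limma's at 95%. Gene positions and lengths come from GENCODE M21 (GRCm38).

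The genes and lists were chosen with earlier results of these data known. All 34 genes are accounted for; full statistics are given for Trp53, for the gene of smallest p in each of 9 roles and for any below an unadjusted p of 0.05, and the 3 genes of smallest p are named from each of the 4 pathway lists. Alternatives covered the pseudocount, filter, scaling, variance trend, length trend, replicate block and each library left out in turn.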

Additional observations from a re-analysis of the deposited data

How the results depend on the processing

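Of 33 genes tested, 29 kept their sign and stayed short of an adjusted p of 0.05 in all 11 alternatives other than leaving out a library. The exceptions turned sign at small values: with the length trend removed Aen was -0.0622, Bcl2 -0.0516, Bbc3 0.0511 and Cflar -0.0723, and under quantile normalization Bbc3 was 0.0111. The count at an unadjusted p below 0.05, 1 as reported, was 0 with no filter, total signal scaling, upper quartile scaling and the replicate block, and 2 under quantile normalization and with the length trend removed. The numbers 1 and 2 pair no samples by the labels. With the replicate block 0 genes of the group passed the adjusted test, and 20 of all genes. Same-numbered libraries deviated in opposite ways (r = -0.24 over 13010 genes), and with crossed pairs, added after seeing the data, 3 genes of the group were below the unadjusted p, beside 9.74% of all genes, 0 passed the adjusted one, and 61 of all genes did.

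Leaving out 1 library gave between 0 and 2 genes past the adjusted p, between 0 and 9 below the unadjusted p, and a median between -0.0705 and 0.00238. The 2 and the 9 came without anti-CD226 replicate 1, where 12.6% and 26.9% of all genes passed the same rules; the single library left is taken to vary as the isotype ones do. Over these omissions the log2 fold change turned sign in 14 genes, with Mdm2 from -0.0278 to 0.11, Cdkn1a from -0.144 to 0.0238, Btg2 from -0.0214 to 0.289, Zmat3 from -0.0942 to 0.00908, Ei24 from -0.143 to 0.00238, Xpc from -0.064 to 0.307, Bcl2 from -0.126 to 0.38, Bax from -0.601 to 0.0491, Bak1 from -0.491 to 0.106, Bad from -0.572 to 0.0495, Bbc3 from -0.151 to 0.13, Cflar from -0.268 to 0.455, Apaf1 from -0.0901 to 0.537 and Xiap from -0.0963 to 0.00316.

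The groups stood apart in between 12 and 17 genes over the scalings, filters and length correction. Depth limits Gadd45a and Eda2r most.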
